A study of Homo sapiens with 6 samples.

Results

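The p53 regulators and direct targets described here are 46 genes chosen by symbol, with earlier results of these data known. They were grouped as proteins that act on p53 or genes named as its targets. Some, such as CCNG2, are better known as targets of other factors. Whether p53 acts on each gene in these cells was not tested. Rows were taken where the printed gene symbol was one of the 46 names, and the authors' deposited tables listed 35 of the 46 (76.1%), among 7681 listed genes in all. RNA was sequenced from 6 untreated cultures of HCT116, a human colorectal carcinoma cell line with wild-type p53, grown for 48 hours. Of these, 3 were labelled wild type and 3 Rab27B KO, in which CRISPR/Cas9 was used to delete RAB27B, a GTPase that docks secretory vesicles. The sources used here do not say whether the knockout cells are 1 clone or a pool. The study asked how loss of RAB27B affects these cells.

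p53 is a transcription factor that is kept low by the ubiquitin ligase MDM2 and its partner MDM4. When it is released by DNA damage or other stress it induces genes for cell cycle arrest, DNA repair, redox control and cell death, and also induces MDM2 and the phosphatase PPM1D, which shut it off again. Most of its targets have other inducers as well. In intestinal epithelium and in colorectal carcinoma, p53 and its target p21 (CDKN1A) are best known for restraining division of damaged cells.

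The data are 2 tables of the authors' own comparison, which give each gene the log2 ratio of Rab27B KO over wild type and a q-value below 0.05. They hold no value per culture, so the level of each member in each of the 6 samples, the spread between replicates and the depth are unknown, and no error can be given for a fold. RAB27B itself stood 36.7-fold above wild type in the authors' deposited table (q listed as 0), which goes against the label at the level of RNA. Why RAB27B stood higher was not tested. Directions below are therefore those of the samples labelled Rab27B KO against those labelled wild type. Whether the labels or the ratio were exchanged was not tested; if they were, every direction here would turn, and of the members 29 would be lower and 6 higher. In bulk RNA, fewer cells with a transcript and less of it per cell cannot be told apart. Of 5 epithelial markers 3 were higher and 2 lower, and the authors' deposited table gives EPCAM as 2.23-fold and CDH1 as 2.22-fold lower. Of 5 leukocyte markers only LYZ and of 5 fibroblast and endothelial markers only COL1A1 and COL3A1 were listed (the authors' deposited table gives log2 values of 1.34, -0.40 and 1.77), and their part in the results on p53 genes was not tested. Without levels, the tables cannot show whether a marker was present.

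A set of 5 promoters are shown first because each window holds an exact copy of the p53 decamer half-site near the annotated start. The half-site is 3 purines, C, A or T at both centre positions, G and 3 pyrimidines, and p53 binds pairs of it. The sequences are RefSeq promoter windows on GRCh38.p14, from 250 bases before to 50 after an annotated start, written 5′ to 3′ on the gene's strand. That start need not be the outermost start of the gene. The AEN window lies inside the gene, which runs from 88604683 to 88632281. Capitals mark the exact decamer, and in GPX1 and AEN also the adjoining decamer, the pair then having up to 2 mismatches in all outside the C and G of each core. The windows are chr17:74872945-74873244 for FDXR (minus strand), chr3:49358304-49358603 for GPX1 (minus), chr5:58460037-58460336 for PLK2 (minus), chr15:63157428-63157727 for RPS27L (minus) and chr15:88621090-88621389 for AEN (plus).
FDXR: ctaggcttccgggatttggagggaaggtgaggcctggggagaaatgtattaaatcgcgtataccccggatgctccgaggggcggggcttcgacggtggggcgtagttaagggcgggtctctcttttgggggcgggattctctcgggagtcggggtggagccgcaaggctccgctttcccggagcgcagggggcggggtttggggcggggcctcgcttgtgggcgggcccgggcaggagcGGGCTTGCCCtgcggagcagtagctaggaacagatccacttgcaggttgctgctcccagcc
GPX1: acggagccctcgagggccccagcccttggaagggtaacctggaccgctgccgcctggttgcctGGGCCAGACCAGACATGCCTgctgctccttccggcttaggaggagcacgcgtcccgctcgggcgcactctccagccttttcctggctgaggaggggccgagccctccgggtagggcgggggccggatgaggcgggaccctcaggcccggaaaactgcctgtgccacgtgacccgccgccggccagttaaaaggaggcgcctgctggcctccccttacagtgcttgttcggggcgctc
PLK2: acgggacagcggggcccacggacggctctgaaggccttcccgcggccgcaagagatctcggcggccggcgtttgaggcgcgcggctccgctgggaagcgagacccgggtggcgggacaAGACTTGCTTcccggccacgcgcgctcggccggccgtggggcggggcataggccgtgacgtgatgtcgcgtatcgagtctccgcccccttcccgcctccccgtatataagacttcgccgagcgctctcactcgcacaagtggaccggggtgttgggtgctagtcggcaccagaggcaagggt
RPS27L: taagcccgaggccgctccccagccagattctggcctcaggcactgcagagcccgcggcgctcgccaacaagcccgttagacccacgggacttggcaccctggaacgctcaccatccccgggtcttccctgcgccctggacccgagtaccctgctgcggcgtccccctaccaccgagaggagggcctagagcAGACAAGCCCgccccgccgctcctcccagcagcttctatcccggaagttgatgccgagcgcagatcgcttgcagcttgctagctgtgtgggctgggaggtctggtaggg
AEN: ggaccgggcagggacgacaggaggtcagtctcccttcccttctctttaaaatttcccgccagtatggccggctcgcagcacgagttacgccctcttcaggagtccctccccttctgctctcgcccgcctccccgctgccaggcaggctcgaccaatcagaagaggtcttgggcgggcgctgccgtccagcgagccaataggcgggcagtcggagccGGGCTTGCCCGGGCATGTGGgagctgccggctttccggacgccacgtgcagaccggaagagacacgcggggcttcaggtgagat

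The first 4 of these genes were listed as higher and AEN, a p53-induced exonuclease that promotes apoptosis, was not listed. Counted from the start used for each window, the decamer begins 11 bases before in FDXR, 59 in RPS27L, 132 in PLK2, 177 in GPX1 and 34 in AEN. The other member window with an exact decamer was that of EI24, which was not listed either. Windows were found for 37 of the 46 members, and 6 of the 37 (16.2%) held an exact decamer, against 5.93% of 15843 windows of protein-coding genes. The members were chosen as p53 regulators and targets, so this contrast can follow from the choice and says nothing about the 2 genotypes. By direction, 4 of 22 windows of higher members, 0 of 6 of lower members and 2 of 9 of members not listed held one. Among all listed genes the share was 4.86% for higher genes and 4.87% for lower genes. Pairs of decamers with up to 2 mismatches in all, looked for after the data were seen, stood in 2 of the 37 windows, against 0.221% of the protein-coding windows. The member windows had a median GC content of 70.0%, against 62.7% for the protein-coding windows, and the part of base composition was not tested. A match is a description of letters in the window, and many known p53 sites lie outside such windows. No window was found in the table for CMBL, GADD45A, PHLDA3, RRM2B, TNFRSF10A, TNFRSF10B, TNFRSF10C, TNFRSF10D and TP53INP1.

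Of the 46 members, 29 were higher, 6 were lower and 11 were in neither table. For comparison, 37.9% of 20056 RefSeq protein-coding genes were listed (19.2% as higher and 18.7% as lower), a set that also holds genes these cells may not express. Among the listed members 82.9% were higher, against 50.7% of all listed genes. The median log2 fold change of the 35 listed members was 0.55, against 0.12 over all listed genes in the authors' deposited table. The 29 higher members had a median of 0.60, against 0.41 for all higher genes, and 20 of the 29 stood above that value of the authors' deposited table. The 6 lower ones, CCNG2, PIDD1, TP53I3, KITLG, XPC and CYFIP2, ranged from -0.64 to -0.11 on that scale. At a q-value below 0.01 stood 30 of the 35 listed members (85.7%), close to the 84.9% of all listed genes, and 25 of these 30 (83.3%) were higher, against 51.1% of all listed genes at that threshold. A log2 change of 1 or more in size was listed for 6 members, all of them higher, or 17.1% of the listed members against 12.6% of all listed genes (6.11% higher and 6.50% lower). With no unchanged genes in the tables these shares carry no test.

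**Figure D1:**
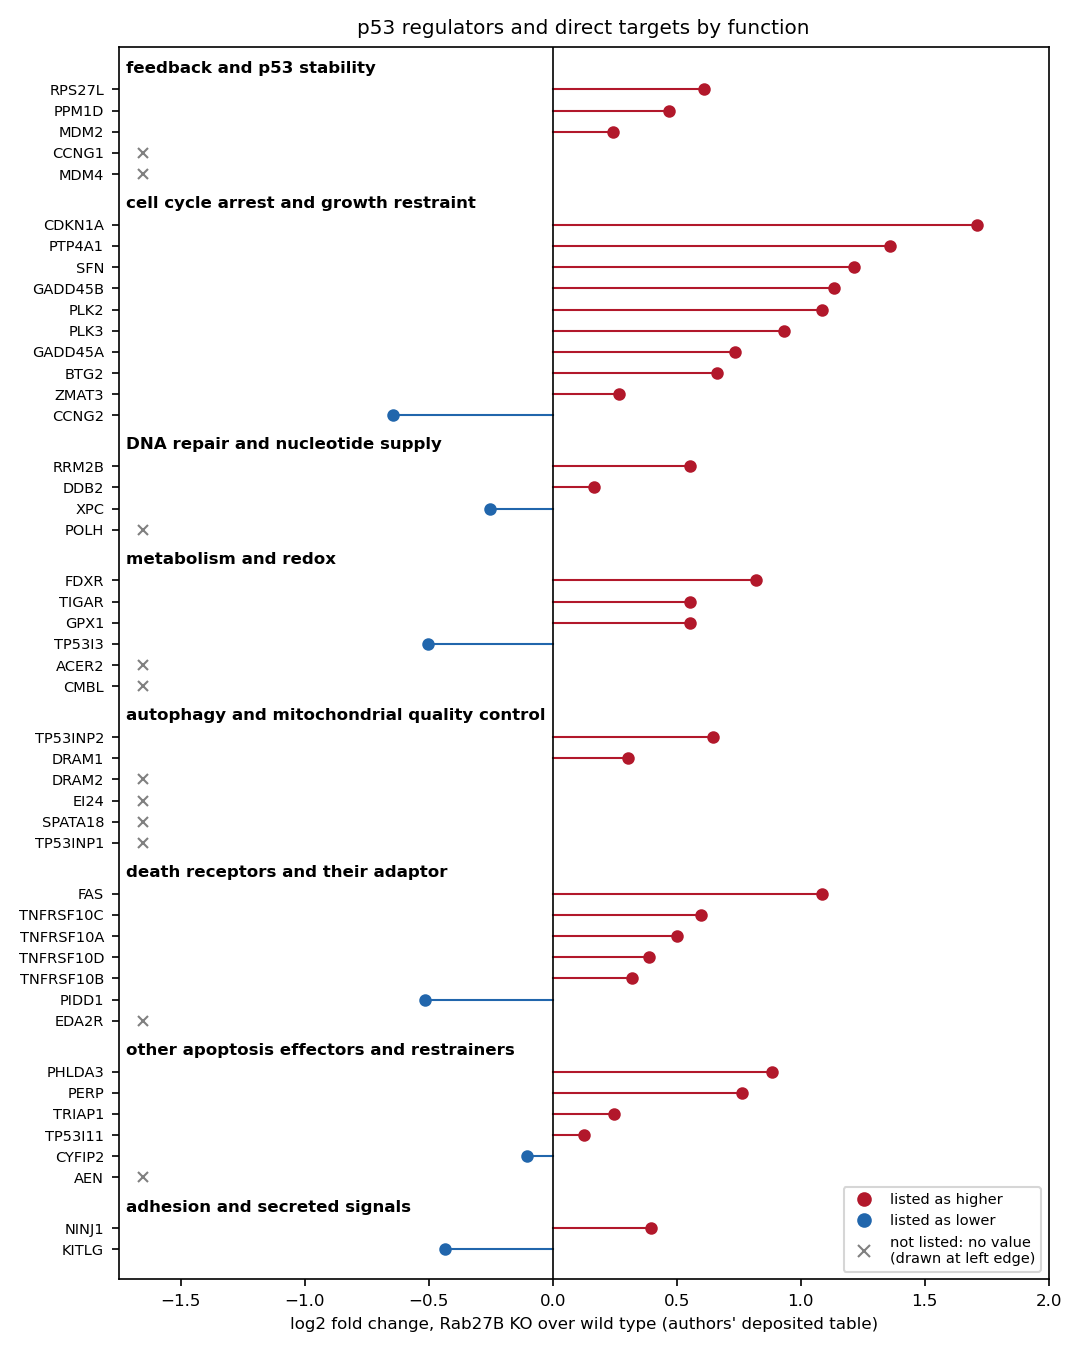
Log2 ratio of Rab27B KO to wild type for each of the 46 members (horizontal axis), grouped by function. Red points are members listed as higher (29), blue points members listed as lower (6), and grey crosses at the left edge the 11 members without a value; the cell cycle arrest group reaches furthest to the right, up to 1.71 for CDKN1A.

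The regulators of p53 split into those that rose and those that were not listed. MDM2, the ubiquitin ligase that marks p53 for destruction, rose only 1.18-fold (log2 fold change 0.24, q = 0.000719) in the authors' deposited table, a change smaller than that of most higher genes (rank 3064 of 3898 by size). PPM1D, the phosphatase WIP1 that reverses damage signalling, rose 1.39-fold (q = 1.86e-11) in the authors' deposited table. RPS27L, a ribosomal protein paralog that binds MDM2, rose 1.52-fold (q = 3.42e-16) in the authors' deposited table. Neither MDM4, which blocks the p53 activation domain, nor CCNG1, which recruits a phosphatase to MDM2, was listed. The feedback group thus had 3 of 5 members higher and 0 lower, where 50.7% of all listed genes were higher. MDM2 (chromosome 12, 68808172 to 68850686) overlaps CPM on the opposite strand, and strand-specific counting is not stated.

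Genes of cell cycle arrest and growth restraint had the largest median of the 8 functional groups, a log2 fold change of 1.01. Of these 10 genes 9 were higher (90.0%, against 50.7% of all listed genes) and 1 lower. CDKN1A (gene ID 1026; chromosome 6, 36676463 to 36687332), the inhibitor of cyclin-dependent kinases known as p21, was 3.27-fold higher with a q-value listed as 0 in the authors' deposited table. It had the largest change of all members, yet ranked 193 of 3898 higher genes by size in the authors' deposited table, and it was 1 of 17 genes with a q-value of 0. PTP4A1 (gene ID 7803; chromosome 6, 63516440 to 63583588), a phosphatase that is better known for promoting growth and that p53 can induce, rose 2.57-fold (q = 2.57e-205) in the authors' deposited table. PTP4A1 is counted among the 9 higher genes of this group and in its median, although arrest is not its best-known role. It has 7 annotated pseudogenes, so its value is uncertain where reads were shared. SFN (gene ID 2810; chromosome 1, 26863149 to 26864456), the 14-3-3 sigma protein that holds mitotic kinase complexes in the cytoplasm, rose 2.32-fold in the authors' deposited table.

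The polo-like kinases and GADD45 stress sensors of that group rose in pairs. PLK2 and PLK3, stress-responsive kinases of the centrosome and the checkpoint, rose 2.12-fold and 1.91-fold in the authors' deposited table. GADD45B, which is also an NF-kB and TGF-beta target, rose 2.19-fold and GADD45A, the form classically induced by p53, 1.66-fold in the authors' deposited table. BTG2, an antiproliferative partner of the mRNA deadenylation machinery, rose 1.58-fold in the authors' deposited table. ZMAT3, an RNA-binding protein and regulator of splicing, had a small rise of 1.20-fold (q = 0.00187) in the authors' deposited table. The exception was CCNG2, an atypical cyclin that restrains growth and is best known as a FOXO target, which was 1.56-fold lower (log2 fold change -0.64, q = 1.92e-10) in the authors' deposited table. It lies on chromosome 4, where only 16.8% of the 298 listed genes were higher.

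**Figure D2:**
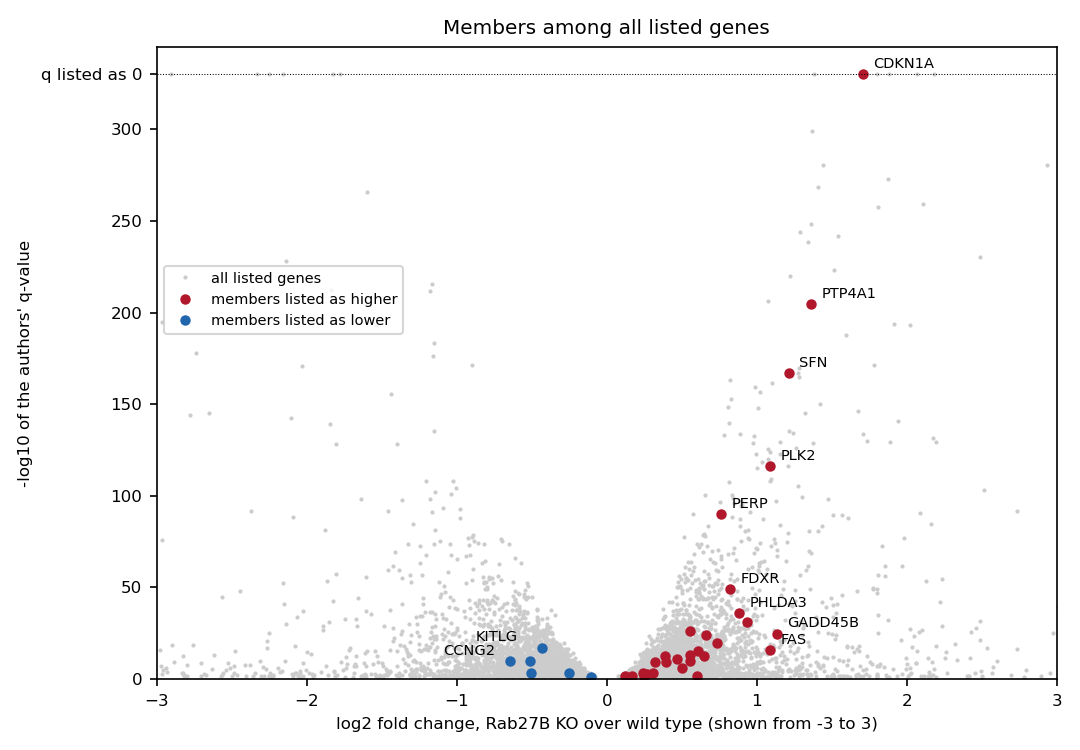
Log2 fold change (horizontal axis, shown from -3 to 3) against -log10 of the authors' q-value (vertical axis, with q-values listed as 0 on the dotted line), for all listed genes in grey, higher members in red and lower members in blue. CDKN1A, PTP4A1 and SFN have the largest folds and smallest q-values of the members, PLK2 follows by q-value with a fold near those of GADD45B and FAS, and the lower members lie near the origin.

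DNA repair genes moved in both directions, and of the listed ones DDB2 and XPC changed little. RRM2B, the p53-induced small subunit of ribonucleotide reductase that supplies nucleotides for repair, rose 1.47-fold (q = 9.62e-14) in the authors' deposited table. DDB2 and XPC recognise ultraviolet lesions for nucleotide excision repair and went opposite ways. DDB2 rose 1.12-fold (q = 0.0301), whereas XPC was 1.19-fold lower (log2 fold change -0.25, q = 0.000280) in the authors' deposited table. XPC overlaps LSM3, itself a listed gene, on the opposite strand. POLH, the polymerase that copies past ultraviolet damage, was not listed, so the group had 2 of 4 members higher and 1 lower. Of its listed members 66.7% were higher, against 50.7% of all listed genes.

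Of the 6 metabolic and redox targets 3 were higher, 1 lower and 2 not listed. FDXR, the ferredoxin reductase of mitochondrial steroid and iron-sulfur cluster synthesis, rose 1.77-fold (q = 7.62e-50) in the authors' deposited table. TIGAR, which lowers glycolytic flux by breaking down fructose-2,6-bisphosphate, and GPX1, a glutathione peroxidase, each rose 1.47-fold in the authors' deposited table. TP53I3, a quinone oxidoreductase also known as PIG3, was 1.42-fold lower (log2 fold change -0.50, q = 0.000864) in the authors' deposited table. The directions of FDXR and TP53I3, both known as p53-induced redox enzymes, were thus opposite. TP53I3 overlaps FAM228B on the opposite strand, and the part of this overlap was not tested. CMBL, a hydrolase, and ACER2, a ceramidase of the Golgi, were not listed.

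The autophagy and mitochondrial quality control group had the smallest share of listed members of the 8 groups, 2 of 6 (33.3%), both higher. That share is near the 37.9% of RefSeq protein-coding genes that were listed. TP53INP2, a nuclear protein that moves to autophagosomes, rose 1.56-fold (q = 3.50e-13) and DRAM1, a lysosomal membrane protein needed for p53-induced autophagy, 1.24-fold (q = 0.000761) in the authors' deposited table. Their relatives TP53INP1 and DRAM2 were not listed, and neither were SPATA18, a mitochondrial quality control protein, and EI24, an endoplasmic reticulum protein of autophagy. A gene that is not listed either did not pass the authors' threshold or was not measured, and the tables do not tell these apart.

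All 5 listed death receptors were higher, from 1.25-fold to 2.12-fold, where 50.7% of all listed genes were higher. The 4 TRAIL receptors among them are neighbours on chromosome 8, so they need not be separate observations. FAS (chromosome 10, 88964050 to 89017059), the receptor of FAS ligand, rose 2.12-fold (log2 fold change 1.09, q = 1.03e-16) in the authors' deposited table. The TRAIL receptors TNFRSF10A and TNFRSF10B, which carry the death signal, rose 1.42-fold (q = 1.21e-06) and 1.25-fold (q = 4.49e-10) in the authors' deposited table. The decoy receptors TNFRSF10C and TNFRSF10D, which bind TRAIL without passing on a full death signal, rose 1.52-fold (q = 0.0138) and 1.31-fold (q = 4.05e-13) in the authors' deposited table. Signalling and decoy receptors thus moved in the same direction, and TNFRSF10C, with the largest fold of the 4, had the weakest q-value. PIDD1, a scaffold that activates caspase-2 and NF-kB, was 1.43-fold lower (log2 fold change -0.51, q = 1.09e-10) in the authors' deposited table. EDA2R, the receptor of ectodysplasin A2, was not listed. On the opposite strand PIDD1 overlaps RPLP2 and FAS overlaps ACTA2, and the part of these overlaps in the values was not tested.

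The 4 TRAIL receptor genes are neighbours on chromosome 8, between 23020133 and 23225102, so they share a region, whose part in their changes was not tested. Of 15 other protein-coding genes within 500 kb of them 9 were listed, 5 higher and 4 lower. RHOBTB2, which overlaps TNFRSF10B on the opposite strand, is given at -0.36 on the log2 scale in the authors' deposited table, and CHMP7, on the other side of the receptors, at 0.38. Both were picked with their values in view. The receptors also resemble each other in sequence, and the sources used here do not say how shared reads were counted.

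Of the 6 other apoptosis genes 4 were higher, 1 lower and 1, AEN, not listed. Among the listed ones 80.0% were higher, against 50.7% of all listed genes. PHLDA3, which blocks the survival kinase AKT at the membrane, rose 1.84-fold (q = 8.61e-37) in the authors' deposited table. PERP, a desmosomal membrane protein that p53 and its relative p63 both induce, rose 1.70-fold (q = 1.15e-90) in the authors' deposited table. TRIAP1, a mitochondrial protein that restrains apoptosis, rose 1.19-fold (q = 0.0220) in the authors' deposited table. The smallest changes of all members were those of TP53I11, 1.09-fold higher, and CYFIP2, an actin regulator, 1.08-fold lower (log2 fold change -0.11, q = 0.0413) in the authors' deposited table. CYFIP2, TP53I11, TRIAP1, DDB2 and TNFRSF10C were the 5 members with a q-value of 0.01 or more. On the opposite strand CYFIP2 overlaps ADAM19 and TP53I11 overlaps TSPAN18, both listed genes, and the part of these overlaps was not tested.

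The last pair of members acts at the cell surface or outside the cell. NINJ1, a membrane adhesion protein that also ruptures the membrane of dying cells, rose 1.32-fold (q = 7.43e-10) in the authors' deposited table. KITLG, the ligand of the KIT receptor, was 1.35-fold lower (log2 fold change -0.43, q = 6.58e-18) in the authors' deposited table.

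Listed genes that act above or beside p53 were mostly lower. Of 33 genes of the p53 family, its kinases and its modifiers 21 were listed (63.6%, against 37.9% of RefSeq protein-coding genes), 2 higher and 19 lower. The listed ones had a median log2 fold change of -0.37, and 9.52% of them were higher, against 50.7% of all listed genes. ATM and ATR, the kinases that signal DNA breaks and stalled forks, stood at -0.76 and -0.69 on the log2 scale of the authors' deposited table, ATM being chosen after its value was seen. The acetyltransferase gene CREBBP, the p53-binding TP53BP1, the kinase gene PRKDC and the family member TP73 stood in the authors' deposited table at -0.60, -0.62, -0.42 and -0.46. The 2 higher genes were TP63, the squamous member of the p53 family, at 0.85 (q = 0.00947) and CHEK2, a checkpoint kinase chosen after its value was seen, at 0.23 (q = 0.0281) in the authors' deposited table. The listed genes of this group had a median transcript length of 5188 bases, and 5 of the 21 lie on chromosomes 4, 7, 13 and 15, where 13.5% to 33.0% of the listed genes were higher. The part of length and chromosome in this direction was not tested.

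Other genes that p53 can induce, outside the 46, leaned like the members. Both lists were chosen with earlier results of these data known, so this likeness is a description and not independent support. Of 48 such genes 35 were listed (72.9%, against 37.9% of RefSeq protein-coding genes), with a median log2 fold change of 0.39. Of these 28 were higher (80.0%, against 50.7% of all listed genes) and 7 lower. GDF15, a stress cytokine, rose 2.86-fold in the authors' deposited table. The death inducers PMAIP1 (NOXA) and BAX rose 2.29-fold and 1.24-fold in the authors' deposited table, whereas BBC3 (PUMA) was not listed. BCL2L1, which restrains apoptosis, and the growth factor genes TGFA and LIF rose 1.56-fold, 2.13-fold and 1.46-fold in the authors' deposited table.

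Genes that p21 and the DREAM repressor complex lower after p53 activation showed no common direction. Of 30 such genes 23 were listed (76.7%, against 37.9% of RefSeq protein-coding genes), with a median log2 fold change of -0.23. Of these 10 were higher (43.5%, against 50.7% of all listed genes) and 13 lower. On chromosomes 4, 7, 13 and 15 lie 5 of the 23, and without these chromosomes 10 were higher and 8 lower. The part of chromosome in these directions was not tested. The mitotic activator CDC20, the ribonucleotide reductase subunit RRM2 and the mitotic kinase CDK1 rose 1.42-fold, 1.40-fold and 1.33-fold in the authors' deposited table. The replication helicase genes MCM3, MCM5 and MCM4 stood at -0.43, -0.39 and -0.37 and the proliferation marker MKI67 at -0.38 on the log2 scale of the authors' deposited table. All 6 genes from MCM2 to MCM7 were lower, a subset chosen after its values were seen. CCNB1, the mitotic cyclin B1, was not listed.

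**Figure D3:**
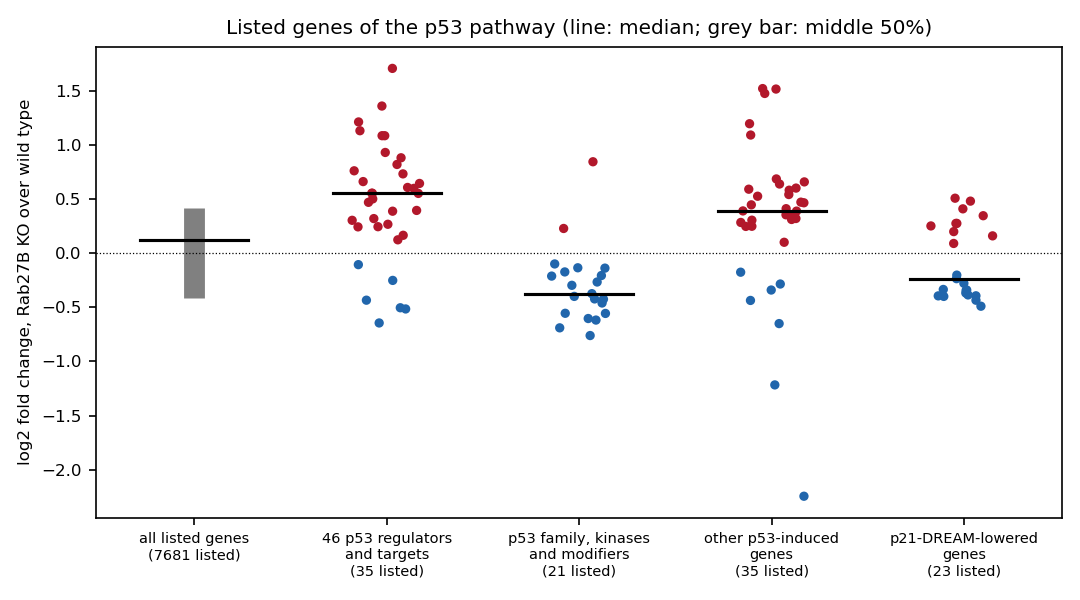
Log2 ratio of Rab27B KO to wild type (vertical axis) for the listed genes of each set, with the median as a black line; all listed genes are drawn as the range of their middle 50%, other sets as 1 point per gene, red for higher and blue for lower. The members (median 0.55) and the other p53-induced genes (0.39) lie mostly above 0 and the p53 family, kinases and modifiers (-0.37) mostly below.

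Transcript length and chromosome go with direction in these tables, so the members were also set beside the other listed genes of the same length tertile. The part of length and chromosome in the members' directions was not tested. Length was that of the longest annotated protein-coding transcript, which need not be the one these cells make. Higher members had a median length of 2714 bases and lower members one of 4679, against 2809 and 4287 for all listed genes of each direction. In the shortest tertile of the listed genes (up to 2615 bases) 12 of 13 members were higher, against 69.2% of the other genes. In the middle tertile 11 of 13 members were higher against 49.3%, and in the longest tertile (4621 to 34526 bases) 6 of 9 against 33.6%. In each tertile the members' share of higher genes was above that of the others, but each tertile holds few members and a range of lengths. Only 2 listed members lie on chromosomes 4, 7, 13 and 15, CCNG2 and RPS27L. RPS27L was higher, and 19.8% of the 257 listed genes of chromosome 15 were.

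**Figure D4:**
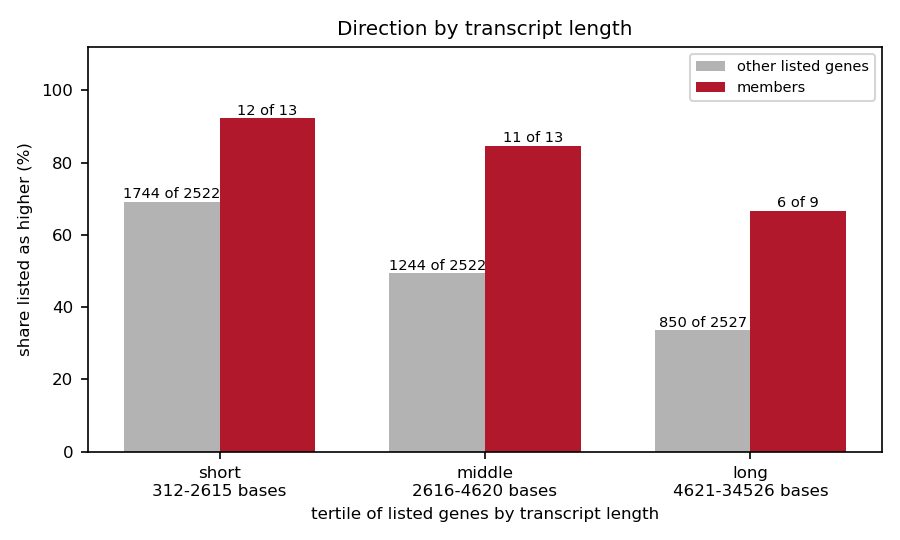
Share of genes listed as higher (vertical axis, percent) by tertile of transcript length (horizontal axis), grey bars for the other listed genes and red bars for members, with the counts above each bar. Both shares fall from the short to the long tertile, and the members' share is above that of the other genes in each.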

How the data were processed

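RNA of 6 HCT116 cultures, 3 per genotype, was compared. The submitters' processing notes name HISAT, Bowtie2 and GRCh38. How reads were counted, scaled, filtered and tested was not given in the sources used here. Per the file headers, the authors deposited the log2 ratio of Rab27B KO to wild type and a q-value for each listed gene. The deposited linear ratio of the higher genes matched the log2 column within a relative difference of 4.53e-10. All q-values were below 0.05 (largest 0.0499963), and no test was added. The depth of each sample is unknown. The submitters call the samples biological replicates.

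Members and lists were chosen with earlier results of these data known. The named genes are all 46 members, RAB27B, up to 6 listed genes with the smallest q-value of each of 3 pathway lists, and TP63, TP73, BAX, BBC3, PMAIP1, GDF15, CCNB1 and CDK1. Some genes under this rule are not reported here. Of 7681 gene IDs 7656 matched RefSeq GRCh38.p14, as did the symbols of all 46 members. Coordinates (1-based) and promoters are from RefSeq GRCh38.p14. Transcript lengths and gene overlaps are from GENCODE 29, with a length for 7606 listed genes. Counting and the motif search, which covers both strands since the decamer is its own reverse complement, were tested on simulated data. Python 3.11.15 and pandas 2.3.3 were used.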

Additional observations from a re-analysis of the deposited data

How the results depend on the processing

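Fold changes and q-values are the authors' and could not be recomputed. Leaving out each replicate, other normalizations and other filters were not run, since no values per sample were analysed. No paired analysis was possible because the tables hold no values per sample. Depth and abundance are unknown, so genes that are not listed cannot be told from genes with few reads. Taking symbols from gene IDs moved no count. At a q-value below 0.01, 25 members were higher and 5 lower; there the higher repair genes came to 1, the other apoptosis genes to 2 higher and 0 lower, and the higher genes of the p53 family and modifiers to 1. At a log2 change of at least 0.5 in size, 22 members remained listed, 19 higher and 3 lower. At that size the groups held fewer genes: feedback 1 higher, repair 1 higher and 0 lower, autophagy 1 higher, death receptors 3 higher, other apoptosis genes 2 higher and 0 lower, adhesion and secreted signals 0 higher and 0 lower, the p53 family and modifiers 1 higher and 6 lower, other p53-induced genes 13 higher and 3 lower, and genes lowered through p21 and DREAM 1 higher and 0 lower. Without chromosomes 4, 7, 13 and 15 the arrest group had 9 higher and 0 lower genes and the DREAM list 10 higher and 8 lower genes. Without the 12 listed members that overlap a protein-coding gene on the opposite strand, a choice made after seeing the data, 23 members were listed, of which 2 were lower. The lower members among the 12 were PIDD1, TP53I3, XPC and CYFIP2. The higher ones were FAS, MDM2, PLK3, RPS27L, TNFRSF10B, TP53I11, TP53INP2 and TRIAP1. A change of at least 1.5-fold was listed for 16 members and a log2 change of at least 2 for 0. With up to 1 mismatch, 56.8% of the member windows held the half-site, against 43.8% of the protein-coding windows; the pair of decamers stood in 5.41% of the member windows.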
